A study of Mus musculus with 10 samples.

Results

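The 58 genes described here are the protein-coding zinc finger genes named Zfp800 to Zfp999 (Zfp, a number from 800 to 999, no letter after it) in a table of 30719 genes of mouse testis. The rule that defines them uses name and gene type, not a measured value. RNA was sequenced from whole testes of mice at postnatal day 10, with 5 libraries from wild-type mice (WT 3, 4, 5, 6 and 9) and 5 from FXR-/- mice (FXR-/- 8, 9, 10, 11 and 12), 1 mouse per library. FXR-/- mice lack FXRα, the bile acid receptor encoded by Nr1h4. The labels name no other allele and no treatment. The strain labels give 50% 129sv and 50% C57Bl for every mouse of both genotypes, and the number after C57Bl, which differs for each library, was not used. The labels do not say which parent strain each mouse carries at a given locus, nor whether the genotypes were littermates.

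Most of these genes encode Krüppel-associated box (KRAB) zinc finger proteins, a family that has multiplied in rodents by local duplication. Each protein reads DNA through a row of C2H2 zinc fingers, and the KRAB domain recruits TRIM28, which brings the histone methyltransferase SETDB1, heterochromatin proteins and DNA methylation to the bound site. Their best known targets are transposable elements and, for some, imprinted genes, and many members of the family are expressed in germ cells and early embryos. Clusters of such genes differ in content and expression between inbred mouse strains.

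Sequence searches described the set as the label does. The longest open reading frames of their GENCODE M21 transcripts held between 0 and 22 matches to the C2H2 pattern (median 10.5), and 52 of 58 genes held more than 5. The conserved core of the KRAB A box was found in 39 of 58 by a narrow pattern that misses some forms of it. The genes lie on 13 chromosomes. The largest groups within 1 Mb of each other hold 8 genes on chromosome 17 (Zfp948, Zfp820, Zfp942, Zfp943, Zfp947, Zfp944, Zfp946 and Zfp945), 6 on chromosome 8 (Zfp930, Zfp868, Zfp964, Zfp869, Zfp963 and Zfp866) and 4 more on chromosome 17 (Zfp871, Zfp811, Zfp870 and Zfp952). Sequence can be shared with paralogs or with gene models that overlap a gene on its own strand. In 14 of the 58 genes at least 10% of the 50-base words occurred in transcripts of other genes, and counts of these are uncertain. Zfp935 led, as all of its words recur elsewhere, 99.2% of them in Gm49359, a model that overlaps it on the same strand. Zfp960 followed (82.7%, with 81.4% in Zfp97).

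Promoter sequences were taken from RefSeq on GRCm38.p6 (250 bases before to 50 after the annotated start), where 52 of the 58 genes had 64 windows. They are shown for Zfp868, Zfp869 and Zfp866, neighbours on chromosome 8 that differed between the genotypes in opposite directions, and for Zfp872 on chromosome 9, which had the largest difference. Capitals mark the CCAAT box and the run CCGCCAT, on either strand, both chosen after these sequences had been read. The windows are chr8:69625499-69625798 (minus strand, the more upstream of 2 windows of Zfp868), chr8:69716853-69717152 (minus), chr8:69774862-69775161 (minus) and chr9:22187916-22188215 (plus). RefSeq and GENCODE place the starts of Zfp869 and Zfp866 differently. The window of Zfp869 lies upstream of its GENCODE span (69706332 to 69710724), and that of Zfp866 lies inside its span (69761326 to 69791178).
Zfp868: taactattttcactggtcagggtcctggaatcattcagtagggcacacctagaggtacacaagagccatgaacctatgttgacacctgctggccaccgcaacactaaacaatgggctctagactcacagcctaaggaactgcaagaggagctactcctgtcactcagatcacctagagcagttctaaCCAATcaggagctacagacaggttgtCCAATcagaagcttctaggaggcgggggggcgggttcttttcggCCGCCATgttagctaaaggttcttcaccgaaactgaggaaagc
Zfp869: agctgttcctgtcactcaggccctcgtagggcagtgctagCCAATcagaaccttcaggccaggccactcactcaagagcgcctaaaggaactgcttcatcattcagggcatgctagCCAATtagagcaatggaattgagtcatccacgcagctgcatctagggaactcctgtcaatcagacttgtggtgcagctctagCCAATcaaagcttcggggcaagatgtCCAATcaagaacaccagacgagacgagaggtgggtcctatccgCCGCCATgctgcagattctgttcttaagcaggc
Zfp866: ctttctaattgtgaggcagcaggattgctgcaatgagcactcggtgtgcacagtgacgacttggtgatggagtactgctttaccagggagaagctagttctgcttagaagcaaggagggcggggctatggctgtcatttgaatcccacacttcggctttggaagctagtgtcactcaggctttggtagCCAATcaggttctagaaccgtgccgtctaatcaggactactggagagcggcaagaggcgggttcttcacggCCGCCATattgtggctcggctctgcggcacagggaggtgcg
Zfp872: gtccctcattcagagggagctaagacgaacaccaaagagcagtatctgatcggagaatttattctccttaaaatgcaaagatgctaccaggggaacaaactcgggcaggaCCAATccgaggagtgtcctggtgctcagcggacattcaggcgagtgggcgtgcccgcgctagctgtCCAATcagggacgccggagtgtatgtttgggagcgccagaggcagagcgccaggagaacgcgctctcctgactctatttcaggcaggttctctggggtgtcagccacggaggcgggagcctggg

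Searched on both strands, CCAAT occurred in 44 of 64 windows of the set (68.8%) and in 37.4% of all 32851 windows of the same length. CCGCCAT, which lies just after the RefSeq start in the chromosome 8 windows shown, occurred in 8 of 64 (12.5%) and in 4.05% of all windows. The 2 words overlapped in 0 windows of the set. Zfp868 has 2 CCAAT boxes in the window shown, Zfp869 has 4, Zfp866 has 1 and Zfp872 has 2, so the box was present in genes of either direction. It was absent from the other window of Zfp868 and from the windows of Zfp850, Zfp944 and Zfp948, which rose. AGGTCA, the half-site bound by many nuclear receptors, was in 3 of 64 windows (4.69%) against 16.3% of all windows, and in 0 of 13 windows of genes that passed the test below. The perfect inverted repeat of this half-site around 1 base, the form that FXR binds with its partner RXR, was in 0 of 64 and in 3 of all 32851. These are matches of letters within 300 bases only.

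The libraries held 32330029 to 39655170 counts. Values are raw counts divided by the library total and expressed as CPM, and differences were tested with edgeR's quasi-likelihood test over 18559 genes, with Benjamini-Hochberg adjustment and a threshold of 0.05. Nr1h4 itself was near the detection limit, at 0.443, 0.428, 0.402, 0.415 and 0.769 CPM in WT 3, 4, 5, 6 and 9 and 0.242, 0.247, 0.277, 0.289 and 0.340 CPM in FXR-/- 8 to 12 (edgeR adjusted p = 0.0347, lost in 10 of 15 alternatives), and the deleted exons are not named in the labels. Germ, Sertoli and Leydig cell markers were all detected. The 4 germ cell markers, none of which passed, summed to 780 to 1425 CPM in WT and 1181 to 1661 in FXR-/-. Between the genotypes, 5 of 5 duct epithelium markers (summed 16.7 to 26.8 CPM in WT, 38.8 to 68.4 in FXR-/-) and 4 of 5 adipocyte markers (17.3 to 79.4 against 50.9 to 701) rose, with none at 0 in all libraries. The summed Sertoli markers were lower (3031 to 3803 CPM in WT, 1891 to 2833 in FXR-/-), and 4 of 5 fell. The part of these cell types in the results below was not tested. In bulk tissue fewer cells of a type and less RNA per cell cannot be told apart.

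Levels within the set differed widely. Of the 58 genes, 57 passed the filter on low counts, and per kilobase of exons their mean levels ran from 0.108 to 16.2 CPM with a median of 4.51, against a median of 4.95 over all tested genes with a position. The highest levels belonged to Zfp869 (14.2 CPM per kb in WT, 18.1 in FXR-/-), Zfp868 (21.4 and 10.7), Zfp830 (13.8 and 14.4), Zfp866 (12.3 and 14.4) and Zfp839 (11.9 and 11.5). Zfp869, Zfp868 and Zfp866 are the chromosome 8 neighbours shown above. Zfp830, a nuclear protein needed in the early embryo, stood at 21.9 ± 0.929 CPM in WT and 23.0 ± 1.17 in FXR-/- (SD, n = 5 each). The order at the top depends on genotype, since Zfp868 led in WT and Zfp869 in FXR-/-. It also depends on the annotated exon length, which is 1590 bases for Zfp869, 2893 for Zfp868 and 5601 for Zfp866. In plain CPM, Zfp869 (22.6 in WT, 28.8 in FXR-/-) lay below Zfp868 (61.8 and 30.9) and Zfp866 (68.6 and 80.5). Zfp830 and Zfp866 in FXR-/- (14.4 CPM per kb each) did not differ beyond their spread.

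**Figure D1:**
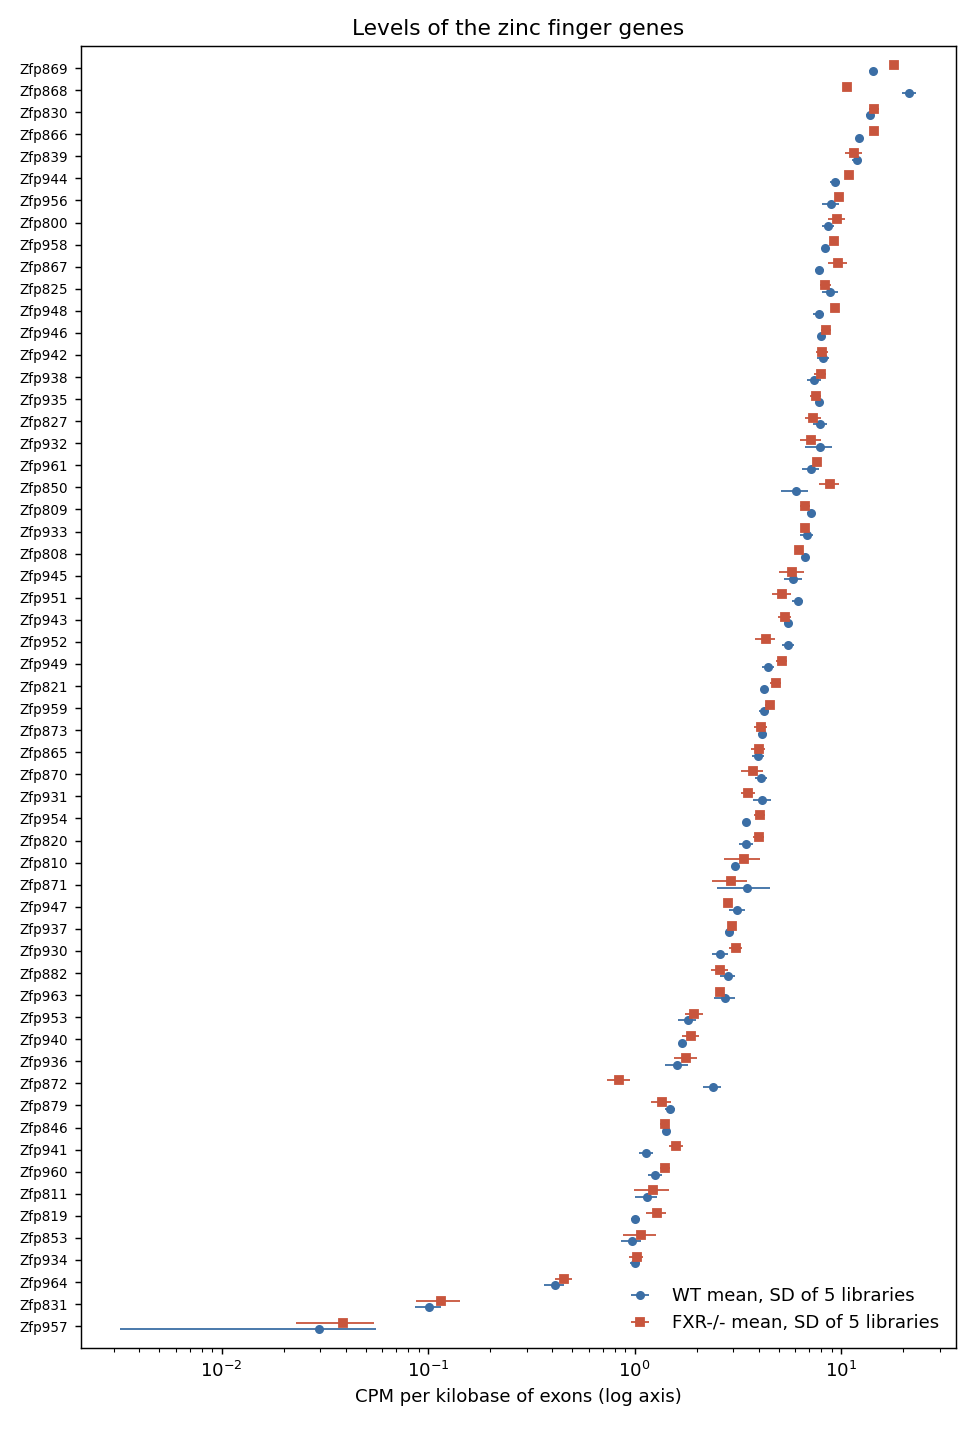
Level of each of the 58 genes in CPM per kilobase of exons (log axis), with WT as circles and FXR-/- as squares, each the mean of 5 libraries with its SD. Zfp868 and Zfp872 are the genes whose 2 points lie farthest apart among those above the detection limit, and Zfp957 sits at the bottom.

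At the low end, Zfp831 was the least expressed gene that passed the filter, at 0.989 ± 0.142 CPM in WT and 1.13 ± 0.273 in FXR-/- (SD, n = 5 each). Zfp957 did not pass. It held 5, 1, 3, 0 and 7 counts in WT 3, 4, 5, 6 and 9 and 6, 4, 7, 3 and 3 counts in FXR-/- 8 to 12, so no difference could be detected at this depth. Between mice of a genotype the genes varied little, with a median coefficient of variation of 6.79% in WT and 7.15% in FXR-/-, against 9.53% and 9.76% over all tested genes. The comparison was not matched for level. All 57 tested genes of the set had a mean of at least 1 CPM, while 15694 genes of the whole table did, fewer than the 18559 tested.

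Between the genotypes, 11 of the 57 tested genes (19.3%) passed the test, against 13.9% of all 18559 genes. Zfp850, Zfp866, Zfp867, Zfp869, Zfp941, Zfp944 and Zfp948 rose in FXR-/- testis, and Zfp868, Zfp872, Zfp951 and Zfp952 fell. The 7 rises (12.3% of the tested genes) stand against 6.17% of all genes and the 4 falls (7.02%) against 7.71%. With library totals as the scaling, 11 rose and 4 fell, while over all genes the share of higher calls went from 44.5% to 61.5%. The median log2 fold change of the 57 genes was 0.04, and that of all tested genes 0.01. The rises were small, up to 0.51 on the log2 scale, and 2 of the falls exceeded 1 on that scale. The 46 genes that did not pass had log2 fold changes from -0.30 to 0.30.

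**Figure D2:**
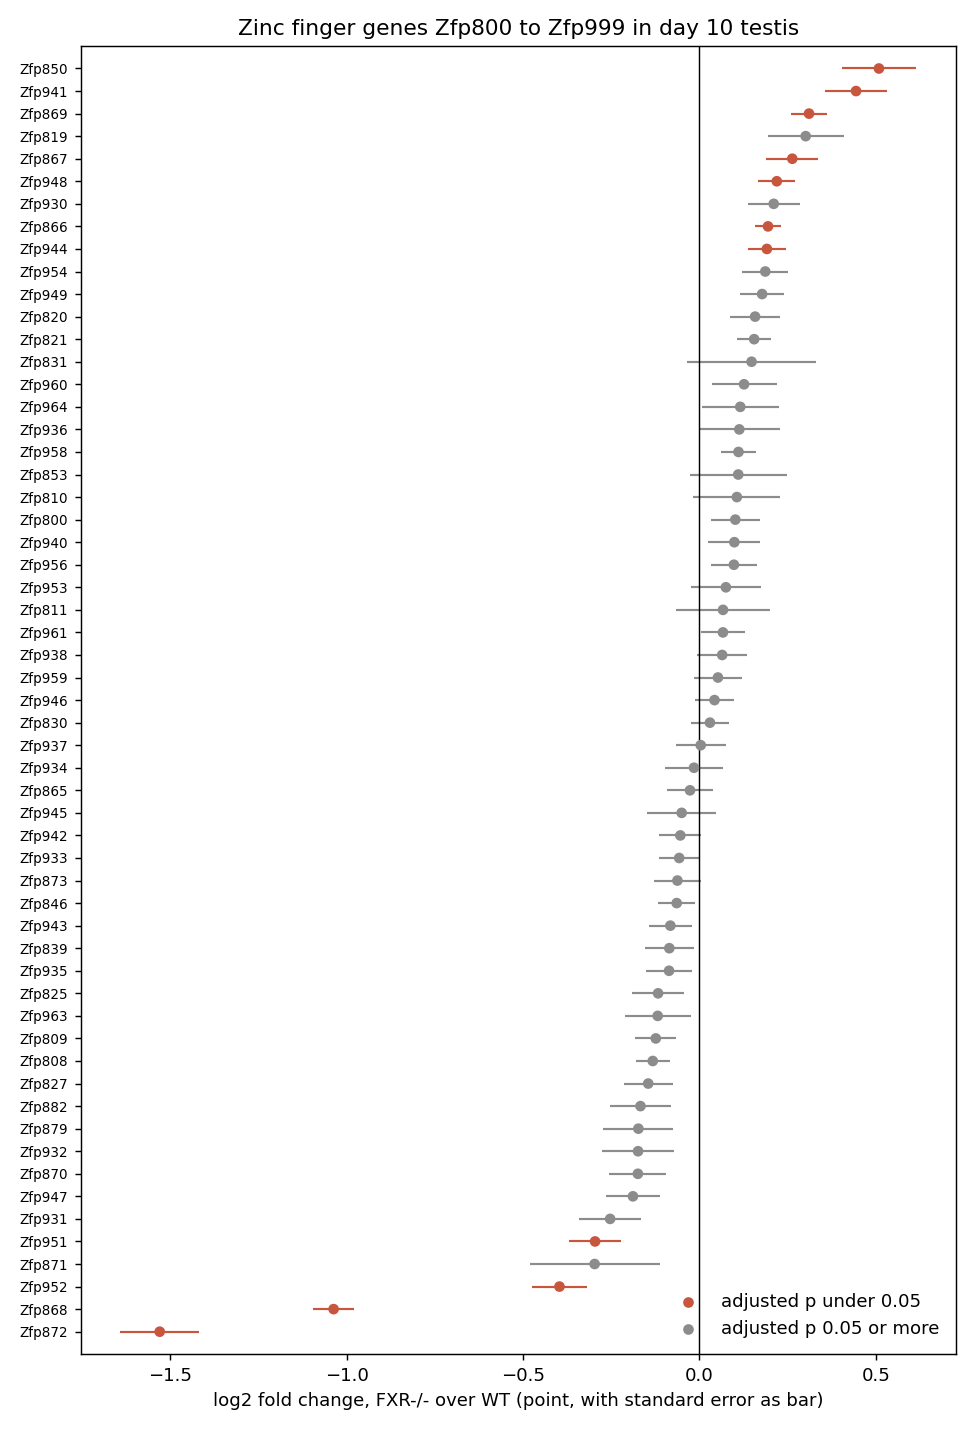
Log2 fold change of FXR-/- over WT for the 57 tested genes, ordered by size, with the standard error as a bar and genes with an edgeR adjusted p under 0.05 in red. Zfp872 (-1.53) and Zfp868 (-1.04) lie apart from all others, which range from -0.40 to 0.51.

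Full on-off differences were absent from the set by the definition used, since 0 of the 57 genes had 3 counts or fewer in every library of one genotype and 10 or more in every library of the other. Over all tested genes 23 met that definition (0.124%). A gap of 2-fold between the nearest libraries of the genotypes was met by Zfp872 only, against 0.453% of all tested genes. A gap of 4-fold was met by none of the set and by 0.199% of all tested genes. The genotypes did not overlap in CPM in 14 of the 57 genes (24.6%), with FXR-/- higher in 11 and lower in 3. Over all tested genes they did not overlap in 2225 (12.0%), with FXR-/- higher in 1365 and lower in 860. These CPM use library totals, the scaling under which 61.5% of calls over all genes were higher. With TMM-scaled CPM the number was 15 of 57, and its split by direction is not given here. These 14 were 10 of the genes that passed the test (all but Zfp951) together with Zfp820, Zfp949, Zfp954 and Zfp958. Zfp820 was a near tie, with the nearest libraries of both genotypes at 13.7 CPM, and in Zfp949 they differed 1.006-fold.

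Zfp872 (ENSMUSG00000074472, GRCm38 chromosome 9, 22188090 to 22202123, plus strand) showed the largest difference. It encodes a KRAB protein with 13 zinc finger matches. WT 3, 4, 5, 6 and 9 had 6.32, 6.88, 7.52, 8.25 and 7.21 CPM, and FXR-/- 8 to 12 had 2.33, 2.22, 2.45, 2.97 and 2.85 CPM. The lowest WT library lay 2.13-fold above the highest FXR-/- library, and all FXR-/- libraries still held reads of the gene. Expression fell by 1.53 on the log2 scale (SE 0.111, edgeR adjusted p = 4.895e-06), from 7.24 ± 0.719 to 2.56 ± 0.330 CPM (SD, n = 5 each).

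None of the 50-base words of Zfp872 occurred in another gene's transcripts, but its span overlaps 1810064F22Rik on the opposite strand. That gene moved the other way. It rose from 4.71 ± 0.150 to 9.81 ± 1.12 CPM (mean ± SD of 5 libraries; edgeR's adjusted p = 2.672e-05, log2 fold change 1.02), and its genotypes did not overlap. The use of strand in the counting is not given in the sources used here, so reads from the overlap of the pair cannot be assigned with certainty. The neighbouring zinc finger genes differed from Zfp872. Zfp809, a repressor known for silencing murine leukaemia viruses in stem cells, stood at 21.1 ± 0.865 CPM in WT and 19.9 ± 1.13 in FXR-/- (edgeR adjusted p = 0.1773). Zfp810 stood at 18.8 ± 0.573 and 20.7 ± 4.17 CPM (edgeR adjusted p = 0.6078), with the FXR-/- libraries spread from 14.7 in FXR-/- 8 to 24.5 in FXR-/- 11. Zfp599, which lies between them and is outside the set, rose from 2.84 ± 0.481 to 5.16 ± 1.02 CPM (edgeR adjusted p = 0.008011; SD, n = 5 for each gene).

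Zfp868 (ENSMUSG00000060427, chromosome 8, 69610857 to 69625548, minus strand) showed the next largest difference. The values were 68.5, 61.1, 62.6, 55.5 and 61.2 CPM in WT 3, 4, 5, 6 and 9, and 29.1, 32.2, 30.8, 31.1 and 31.1 CPM in FXR-/- 8 to 12. The groups were far apart, with the nearest libraries 1.73-fold from each other. The gene fell by 1.04 on the log2 scale (SE 0.0584, edgeR adjusted p = 4.905e-07), from 61.8 ± 4.63 to 30.9 ± 1.11 CPM (SD, n = 5 each).

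Its paralog Zfp869 (ENSMUSG00000054648, chromosome 8, 69706332 to 69710724, minus strand) rose. The values were 24.3, 22.3, 22.2, 22.6 and 21.6 CPM in WT 3, 4, 5, 6 and 9 and 29.8, 28.6, 29.7, 27.7 and 28.1 CPM in FXR-/- 8 to 12. Every FXR-/- library lay above every WT library (log2 fold change 0.31, SE 0.0497, edgeR adjusted p = 0.002716). Of the 50-base words of Zfp869, 9.35% also occur in Zfp868, and 5.07% of those of Zfp868 occur in Zfp869, so some reads of the pair may have been assigned to either gene.

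Farther along the same group, Zfp866 (ENSMUSG00000043090, chromosome 8, 69761326 to 69791178, minus strand) also rose. WT 3, 4, 5, 6 and 9 had 69.3, 68.4, 71.7, 67.1 and 66.6 CPM, and FXR-/- 8 to 12 had 81.3, 81.3, 77.7, 78.8 and 83.6 CPM. The genotypes did not overlap (log2 fold change 0.19, SE 0.0360, edgeR adjusted p = 0.005626). Zfp866 overlaps Atp13a1 on the opposite strand and the gene model Gm20422 on its own strand, which limits how surely its reads were assigned. The other genes of the group did not pass: Zfp930 stood at 13.6 ± 1.16 and 16.1 ± 1.12 CPM, Zfp963 at 6.28 ± 0.715 and 5.93 ± 0.257, and Zfp964 at 3.11 ± 0.339 and 3.46 ± 0.329 (WT and FXR-/-, SD, n = 5 each; edgeR adjusted p = 0.07672, 0.4345 and 0.5147).

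**Figure D3:**
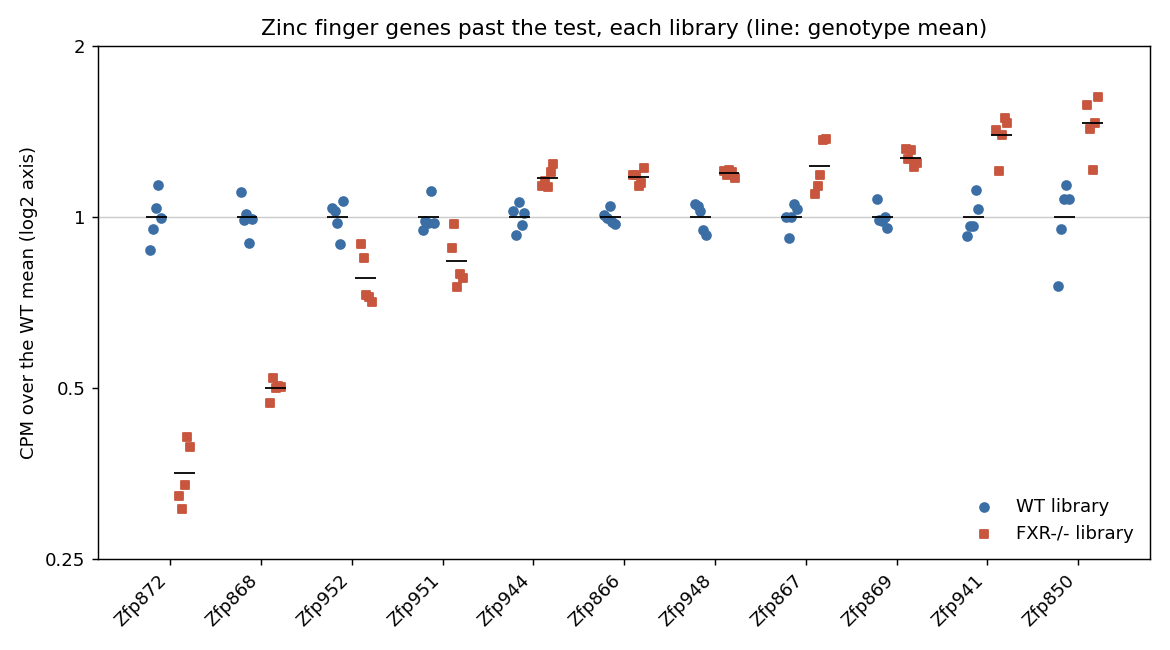
CPM of each library divided by the WT mean of the gene (log2 axis), for the 11 genes that passed the test, with WT as circles, FXR-/- as squares and the genotype mean as a line. Zfp872 and Zfp868 are clear of the WT points by the widest margin, and Zfp951 is the gene whose genotypes overlap.

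On chromosome 7, 2 genes rose most. Zfp850 (ENSMUSG00000096916, 27984854 to 28014115, minus strand) had 28.0, 35.4, 39.8, 42.2 and 40.0 CPM in WT 3, 4, 5, 6 and 9 and 58.3, 52.9, 44.9, 54.3 and 60.3 CPM in FXR-/- 8 to 12. WT 3 was the lowest of its group, and no FXR-/- library reached down to WT (log2 fold change 0.51, SE 0.104, edgeR adjusted p = 0.00876). WT 3 was also the lowest WT library in each of the 4 germ cell markers, and a link was not tested. Zfp941 (ENSMUSG00000060314, 140807449 to 140822178, minus strand) had 4.96, 5.17, 5.17, 5.99 and 5.53 CPM in WT and 7.63, 6.47, 7.49, 8.00 and 7.84 CPM in FXR-/-, in the same order of libraries. FXR-/- 9 was the lowest of its group and still above every WT library (log2 fold change 0.44, SE 0.0868, edgeR adjusted p = 0.007263).

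On chromosome 17, the genes went different ways. Zfp952 (ENSMUSG00000053390, 32993129 to 33005457, plus strand) fell by 0.40 on the log2 scale (SE 0.0780, edgeR adjusted p = 0.007434). It had 25.1, 24.7, 23.6, 21.7 and 25.8 CPM in WT 3, 4, 5, 6 and 9 and 21.6, 20.5, 17.6, 17.4 and 17.1 CPM in FXR-/- 8 to 12, and the nearest libraries of the genotypes differed 1.001-fold. Zfp948 rose from 20.6 ± 1.18 to 24.6 ± 0.343 CPM and Zfp944 from 26.0 ± 1.37 to 30.4 ± 1.26 CPM (mean ± SD of 5 libraries; edgeR's adjusted p = 0.01793 and 0.03378). The other 6 genes of their group of 8 did not pass. Without FXR-/- 9 and FXR-/- 10, the libraries highest in each of the 5 adipocyte markers, neither passed among the 8 libraries left, while the log2 fold changes were close to those with all libraries (Zfp948 0.20 against 0.22, edgeR adjusted p = 0.06732, and Zfp944 0.20 against 0.19, edgeR adjusted p = 0.07107). Zfp944, with 8.67% of its words in Zfp942, also lost its call without the filter on low counts and without any 1 of WT 4, WT 6, WT 9, FXR-/- 9, FXR-/- 11 and FXR-/- 12 (edgeR adjusted p up to 0.0839).

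The remaining calls were a rise and a fall of single genes. Zfp867 on chromosome 11 rose from 26.8 ± 1.38 to 32.9 ± 3.50 CPM and Zfp951 on chromosome 5 fell from 29.2 ± 1.85 to 24.4 ± 2.64 CPM (mean ± SD of 5 libraries; edgeR's adjusted p = 0.03539 and 0.02237). In Zfp951 the highest FXR-/- library (28.4 CPM) lay above the lowest WT library (27.7 CPM). Neither call held throughout. Zfp867 lost its call without any 1 of WT 3, WT 4, WT 5, WT 9, FXR-/- 11 and FXR-/- 12 (edgeR adjusted p up to 0.08735), and Zfp951 without WT 6, FXR-/- 11 or FXR-/- 12 (up to 0.05935).

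Genes of the set with a studied function were among those that did not pass. Zfp819, a KRAB protein linked to the repression of retroelements, stood at 2.49 ± 0.132 CPM in WT and 3.15 ± 0.347 in FXR-/- (edgeR adjusted p = 0.08172), with FXR-/- 12 inside the WT range. Zfp932, which binds and represses endogenous retroviruses, stood at 25.7 ± 3.85 and 23.4 ± 2.65 CPM (edgeR adjusted p = 0.2832), and 34.9% of its words occur in its paralog Gm15446. Zfp827, a chromatin protein that recruits the NuRD complex, stood at 70.6 ± 5.68 and 65.5 ± 5.66 CPM (edgeR adjusted p = 0.187; SD, n = 5 for each gene). On chromosome 10, which carries Nr1h4, the 2 genes of the set were Zfp873 (13.2 ± 0.685 and 13.0 ± 0.927 CPM) and Zfp938 (15.8 ± 1.23 and 16.9 ± 1.16 CPM), and neither passed (edgeR adjusted p = 0.5737 and 0.5861; SD, n = 5 each). Zfp821 lay just outside the threshold (log2 fold change 0.16, edgeR adjusted p = 0.05168).

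The genes around the zinc finger genes were counted next, since alleles of one parent strain are inherited in blocks. Within 2 Mb of the 11 genes that passed, 138 of 655 other tested genes outside the set passed (21.1%), and within 2 Mb of the 46 that did not pass, 283 of 1763 (16.1%), with some genes in both counts. The share over all tested genes is 13.9%. The windows of single genes given next leave out only the gene itself, so they include other genes of the set. The highest share lay around a gene that did not pass, Zfp931 on chromosome 2, with 16 of 36 (44.4%, 2 higher and 14 lower). Next came Zfp882 and Zfp961 on chromosome 8, which did not pass either, with 41 of 107 in the window of each (38.3%). Their windows overlap each other and those of the chromosome 8 group, so the counts share genes. In the chromosome 8 group, 34 of 99 tested genes around Zfp868 passed (34.3%, 20 higher and 14 lower), and around Zfp866 and Zfp869, whose windows are nearly the same, 36 of 103 (35.0%). Around Zfp944 it was 18 of 59 (30.5%), around Zfp872 14 of 81 (17.3%) and around Zfp941 11 of 90 (12.2%). Neighbouring genes are not independent, so these shares are descriptions, and the strain origin of these blocks was not tested.

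Near Zfp868 the changed genes went in both directions. Homer3, a synaptic scaffold gene, rose from 14.0 ± 1.06 to 24.6 ± 1.07 CPM, Rfxank, a regulator of MHC class II genes, from 16.3 ± 0.411 to 22.8 ± 0.650 CPM, and the mitochondrial carrier gene Slc25a42 fell from 44.6 ± 0.954 to 34.0 ± 2.71 CPM (mean ± SD of 5 libraries; edgeR's adjusted p = 1.491e-05, 0.0001608 and 0.0005664). These 3 genes were named after their values were seen, as was Gm10654. Gm10654, a gene model 1.31 Mb away, was the only gene of this window with a 2-fold gap. It had 0.148, 0.0571, 0, 0 and 0.0887 CPM in WT 3, 4, 5, 6 and 9 and 1.15, 1.21, 1.41, 2.08 and 1.62 CPM in FXR-/- 8 to 12 (edgeR adjusted p = 7.03e-05).

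**Figure D4:**
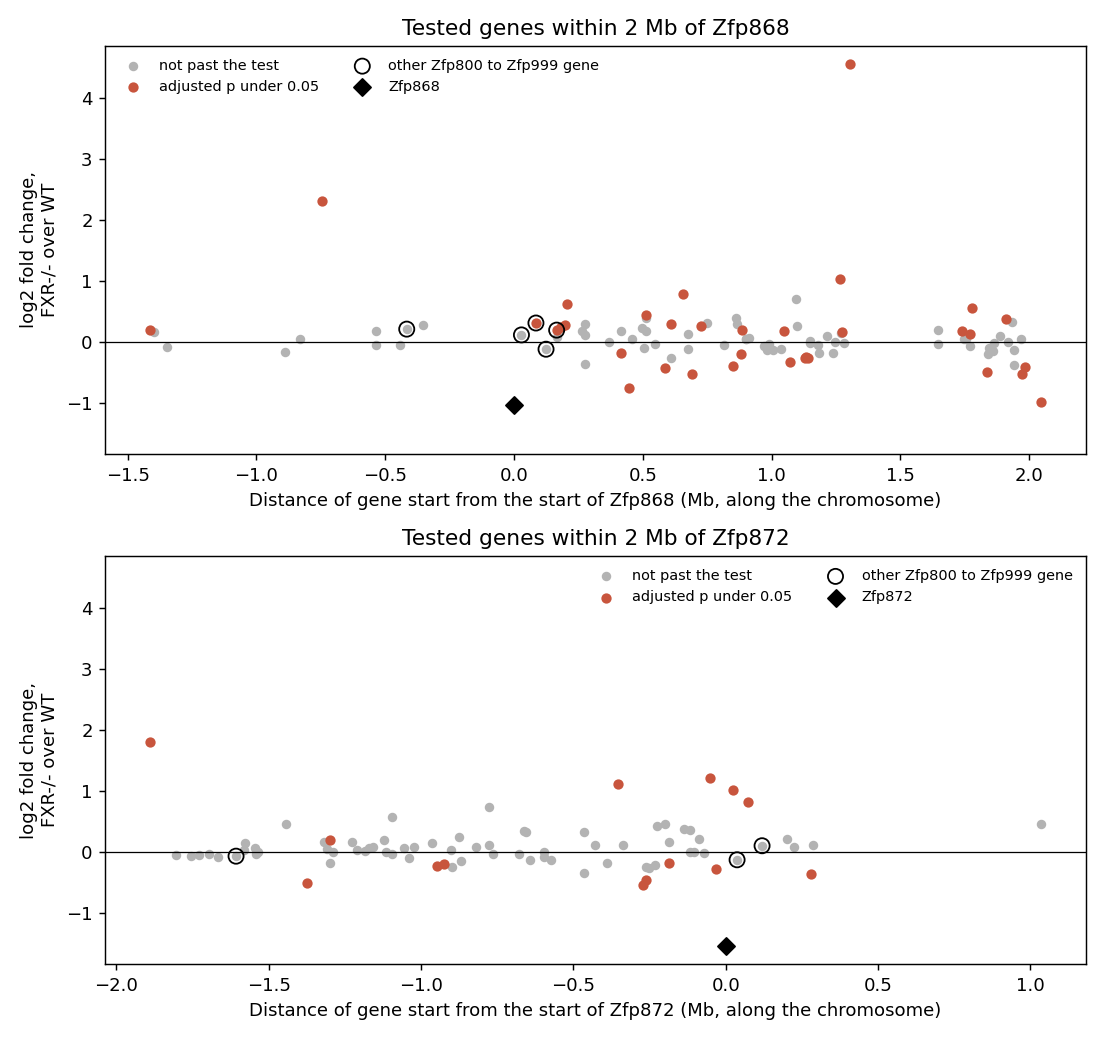
Log2 fold change of all tested genes within 2 Mb of Zfp868 (upper panel) and Zfp872 (lower panel), against the distance of their start from that of the named gene (diamond), with genes past the test in red and other zinc finger genes of the set circled. The window of Zfp868 holds 34 red points among 99 and that of Zfp872 holds 14 among 81, above and below 0 in both.

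Zinc finger genes with other names gave a second set of values. Of 313 other tested Zfp, Zkscan and Zscan genes, 33 passed (10.5%, 10 higher and 23 lower), and 0 of them had a 2-fold gap. Their median log2 fold change was -0.01. The difference between this share and the 19.3% above was not tested.

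Genes for the proteins with which KRAB zinc fingers silence DNA mostly did not pass the test, and only their RNA was measured. Of 41 genes listed as partners, all tested, 4 passed (9.76%, against 13.9% of all genes), with 1 higher and 3 lower. The list holds 4930402H24Rik on chromosome 2, taken as an older name of Resf1 without a check. Resf1 itself may therefore be missing and an unrelated gene counted. That gene did not pass (edgeR adjusted p = 0.2676). Trim28, the corepressor itself, stood at 433 ± 11.6 CPM in WT and 430 ± 23.1 in FXR-/-, and Setdb1, the methyltransferase it recruits, at 220 ± 14.1 and 229 ± 10.9 CPM (mean ± SD of 5 libraries; edgeR's adjusted p = 0.4775 and 0.7839). Atf7ip, which stabilises SETDB1, fell from 207 ± 6.13 to 181 ± 8.62 CPM, the histone chaperone gene Daxx from 91.9 ± 1.24 to 77.0 ± 4.81 CPM, and Chd3, a remodeller of the NuRD complex, from 424 ± 3.80 to 382 ± 14.4 CPM. Cbx3, which encodes heterochromatin protein HP1γ, rose from 198 ± 4.84 to 226 ± 8.55 CPM (SD, n = 5 each). For these 4 genes the edgeR adjusted p was 0.006766, 0.002168, 0.007539 and 0.0138, the genotypes did not overlap, and the call held in all 16 alternatives run.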

How the data were processed

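RNA came from flash-frozen testes (Trizol) and went into Illumina TruSeq RNA libraries, per the labels' protocols. The submitters' processing notes name FastQC 0.10.1, CASAVA, Bowtie, TopHat2 2.0.10, Bowtie2 2.1.0 and build mm10, with no role or order. For the counter, the annotation release and the use of strand, the sources used here name nothing. The deposited table holds raw counts per gene and library, as made by the authors, and these were the input of every test. Positions, exon lengths and transcripts came from GENCODE M21 on GRCm38, the same build, matched by identifier (30212 of 30719 genes).

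Differences were tested in edgeR 4.0.16 under R 4.3.3, after its filterByExpr step and TMM scaling (quasi-likelihood F-test, two-sided, genotype as the only term, 18559 genes). Standard errors are the log2 fold change divided by the square root of F. The step was tested on simulated data. DESeq2 1.42.0, other scalings, other filters and left-out libraries were alternatives. CPM use library totals. The genes described and all lists were chosen with earlier results of these data known. Named genes were those with a 2-fold gap, those called, the 5 with the highest level per kilobase, the lowest tested, Trim28, Setdb1, called partners and Nr1h4. Other genes were named for their function, place in a group or counts after their values were seen. Nothing in the labels says more of the mice than that they were individual animals.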

Additional observations from a re-analysis of the deposited data

Results flagged for a closer look

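Among 42 groups of 5 libraries screened (21 named genes in both genotypes), 4 held a library that stood apart from the others by Dixon's criterion, which chance meets in about 1 of 20 groups. Zfp951 was at 32.4 CPM in WT 6, against 27.7 to 28.7 in the other WT libraries, and its call was lost without WT 6. Daxx was at 89.7 CPM in WT 6, against 92.0 to 92.6 in the other WT libraries. Trim28 was at 470.0 CPM in FXR-/- 8, against 415 to 429 in the other FXR-/- libraries. Nr1h4 was at 0.769 CPM in WT 9, against 0.402 to 0.443 in the other WT libraries.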

How the results depend on the processing

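Of the 11 zinc finger genes that passed the test, 7 kept call and sign in all 16 alternatives (Zfp850, Zfp866, Zfp868, Zfp869, Zfp872, Zfp941 and Zfp952) and 4 lost the call in at least 1. The number called was 12 with upper-quartile scaling (13.7% of all genes called), 15 with library totals alone (14.6%), 16 with DESeq2 (18.8%, 3482 genes), 10 without a filter (7.46%), and 8 (without FXR-/- 11) to 13 when 1 library was left out. With library totals alone 11 rose, where TMM gave 7. Among the 28 genes with little shared sequence (limit 5% of words) and no opposite-strand gene, an alternative chosen after seeing the data, 6 passed. This choice leaves out Zfp866, Zfp868, Zfp869, Zfp872 and Zfp944, so it says nothing on the calls of these genes, the largest falls among them. A 4-fold gap was met by 0 genes. Silencing partners called were 7 with library totals and 9 with DESeq2, where TMM and edgeR gave 4. Leaving out 1 library gave 1427 to 2867 calls over all genes (1601 without WT 4, 1427 without FXR-/- 11, 1635 without FXR-/- 12) and 19 to 37 over the other Zfp, Zkscan and Zscan genes (20 without WT 4, 19 without FXR-/- 11 and without FXR-/- 12), where all libraries gave 2576 and 33. The log2 fold change of Setdb1, not called, ran from -0.0054 (without WT 3) to 0.0502 when 1 library was left out, and was 0.0604 with library totals alone. The cause of these shifts was not tested. No paired analysis was possible because the labels give no pairing of mice between the genotypes. Replicate number 9 occurs in both, and the labels do not say that it links the mice. Depth limits Zfp957, with at most 7 counts per library, and Nr1h4.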

Other observations

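Zfp871, on chromosome 17 from 32765496, varied more between WT mice than any other tested gene of the set. It had 30.0, 31.9, 30.8, 52.6 and 50.1 CPM in WT 3, 4, 5, 6 and 9 and 24.4, 31.2, 30.1, 37.9 and 39.4 CPM in FXR-/- 8 to 12, and did not pass the test (log2 fold change -0.30, SE 0.184, edgeR adjusted p = 0.307). WT 6 and WT 9 were high, and in FXR-/- the highest were FXR-/- 11 and FXR-/- 12. Among genes of at least 10 CPM, Lnpep, an aminopeptidase gene elsewhere on chromosome 17, had the most similar pattern over the 10 libraries (Pearson r of log2 CPM 0.992, a description chosen after the values were seen). Its values were 42.7, 49.5, 47.0, 81.0 and 76.3 CPM in WT and 36.8, 48.5, 42.6, 55.9 and 58.2 CPM in FXR-/-. The adjacent gene Zfp811 did not share the pattern, at 3.77 CPM in WT 6 and 3.37 CPM in WT 9 against 4.22 to 4.68 in the other WT libraries.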
